A study of Sus scrofa with 15 samples.

Results

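TSPO (ENSSSCG00000000033) and SLC25A25 (ENSSSCG00000005636) encode proteins of the mitochondrial membranes, and they are 2 of the 16660 genes counted in LLC-PK1 cells, a renal proximal tubule epithelial line of the pig. Both were chosen by their measured values. TSPO was chosen for its higher level in Tg1 than in NC, and SLC25A25 for its higher level in Tg2 than in NC. Their comparisons with NC, and those that involve the libraries they were chosen on, are therefore given as descriptions, with no p-value. Only comparisons among the remaining libraries were tested.

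TSPO is the translocator protein of the outer mitochondrial membrane. It binds cholesterol and porphyrins, is found together with the voltage-dependent anion channels (VDACs), and has the acyl-CoA binding protein DBI as an endogenous ligand. SLC25A25 is an ATP-Mg/phosphate carrier of the inner membrane. It has calcium-binding EF-hands on the cytosolic side, and calcium activates the exchange through which it loads the matrix with adenine nucleotides. PKD2 encodes polycystin-2, a cation channel of the primary cilium and the endoplasmic reticulum whose mutation causes autosomal dominant polycystic kidney disease.

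The study asked which genes respond when human PKD2 is overexpressed in these cells. The 15 libraries represent 5 plasmids with 3 wells each. NC is the empty plasmid, and WT is the same plasmid with wild-type human PKD2. Tg1 carries PKD2 with c.A1532T (p.D511V), Tg2 with c.T1967G (p.L656W) and Tg3 with c.C2224T (p.R742X), where the cDNA and protein positions are those of the sample labels. All 5 plasmids share the CAG promoter, the floxed neomycin cassette and the pig H11 sequence, and all wells were transfected transiently with the same lipid reagent. The pig's own PKD2 was present in every group. The Tg3 product lacks the C-terminal region of the protein and also the FLAG tag, so its protein was not seen with the antibody used for the other constructs. The wells of a plasmid are cultures of a single cell line, so the p-values measure only the spread between wells.

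The total count per library ranged from 20216200 (Tg3) to 26132196 (NC). Of the 18 markers of proximal tubule or renal epithelium that were looked for, 16 were in the table and all 16 were expressed in every library, with a summed level of 4900 ± 15.3 CPM (SD, n = 3) in NC and KRT8 as the most abundant. PTPRC, the defining marker of leukocytes, had between 0 and 1 counts per library, and the 5 leukocyte markers in the table summed to means from 32.3 CPM in NC to 36.2 CPM in Tg2, mostly from AIF1. The endothelial markers CDH5 and KDR had at most 3 and 1 counts, and the 3 markers of this list summed to 1.08 CPM in NC. Of the 4 fibroblast markers in the table, COL1A2 was high, at 948 CPM on average in NC, whereas COL1A1, COL3A1 and PDGFRB had at most 25, 15 and 2 counts per library. The levels of the 2 genes are given as CPM, that is, each library's counts scaled to a common total after TMM normalization of the library sizes. No gene lengths were used, so the levels of different genes are not compared with each other.

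TSPO had a similar level in NC, WT and Tg3, a somewhat higher one in Tg2 and its highest level in Tg1. In NC it was counted at 17.2, 16.3 and 18.4 CPM, from 390, 427 and 477 counts. In WT the 3 libraries had 15.4, 17.9 and 18.1 CPM, and in Tg3 they had 17.4, 18.5 and 19.1 CPM. The levels of these 3 groups overlapped, and WT replicate 1, with 332 counts, was the lowest of all libraries. In Tg2, TSPO was at 18.0, 19.7 and 20.1 CPM, which overlapped with NC, WT and Tg3. In Tg1, the libraries had 21.8, 23.5 and 21.4 CPM, from 502, 598 and 514 counts. All 3 Tg1 libraries lay above the other 12 libraries. TSPO was chosen for its level in Tg1, and the share of all genes separated in this way is not given here. Nothing is therefore read from the separation.

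The means of TSPO were 17.1 ± 1.48 CPM in WT, 17.3 ± 1.05 in NC, 18.3 ± 0.85 in Tg3, 19.3 ± 1.08 in Tg2 and 22.2 ± 1.14 in Tg1 (SD, n = 3 each). In this order, every group overlapped with the next except Tg2 with Tg1. Relative to NC, the log2 fold change of TSPO was 0.37 in Tg1 (standard error 0.07, 95% interval 0.205 to 0.526), a 1.29-fold higher level. It was 0.16 in Tg2 (interval -0.005 to 0.321), 0.09 in Tg3 (interval -0.076 to 0.251) and -0.01 in WT (interval -0.175 to 0.154). These 4 comparisons share the NC libraries. Tg1 also differed from WT by 0.38 (interval 0.213 to 0.538), and in this comparison the libraries did not overlap either. The levels in Tg2 and Tg3 were below that in Tg1 by -0.21 (interval -0.368 to -0.046) and -0.28 (interval -0.439 to -0.116) on the log2 scale, again without overlap.

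SLC25A25 had its lowest level in NC and its highest in Tg2, with WT, Tg1 and Tg3 between them. The NC libraries had 36.9, 39.6 and 35.7 CPM, from 839, 1039 and 928 counts. In WT the level was 46.1, 44.9 and 43.8 CPM, and in Tg1 it was 44.2, 47.2 and 45.7 CPM. Every WT and Tg1 library was above every NC library, while WT and Tg1 overlapped. In Tg2 the libraries had 49.0, 51.9 and 46.3 CPM, from 1094, 1112 and 1031 counts, and in Tg3 they had 46.3, 42.0 and 40.7 CPM. Thus all 12 libraries with a PKD2 plasmid, wild-type or mutant, were above all 3 libraries of the empty plasmid, and the nearest of them was Tg3 replicate 3. SLC25A25 was chosen for its level in Tg2 against NC, and the share of all genes separated in this way is not given here. Nothing is therefore read from the separation.

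**Figure D1:**
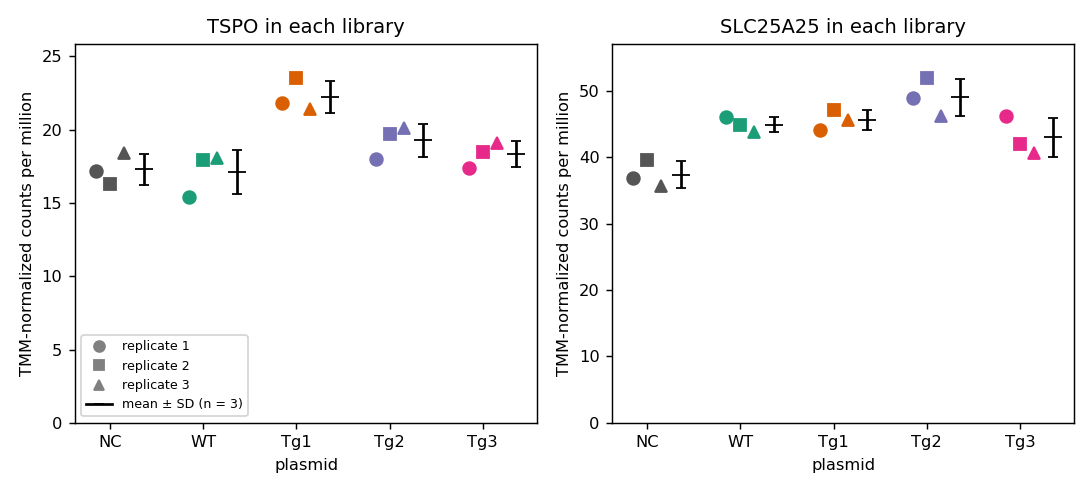
Level of TSPO (left) and SLC25A25 (right) in each of the 15 libraries, in TMM-normalized CPM, by plasmid on the horizontal axis. Symbols are replicates 1, 2 and 3, and the bars beside them are the mean ± SD (n = 3). TSPO stands out in Tg1, at 21.4 CPM or more, and SLC25A25 is lowest in NC, at 39.6 CPM or less.

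The means of SLC25A25 were 37.4 ± 1.97 CPM in NC, 43.0 ± 2.91 in Tg3, 44.9 ± 1.17 in WT, 45.7 ± 1.49 in Tg1 and 49.1 ± 2.81 in Tg2 (SD, n = 3 each). Between NC and Tg3 there was no overlap, while each later group in this order overlapped with the next. Relative to NC, SLC25A25 had a log2 fold change of 0.39 in Tg2 (standard error 0.06, 95% interval 0.266 to 0.517), a 1.31-fold higher level. It was 0.29 in Tg1 (interval 0.163 to 0.414), 0.26 in WT (interval 0.139 to 0.391) and 0.20 in Tg3 (interval 0.074 to 0.327), each with a standard error of 0.06. Tg2 was above WT by 0.13 (interval 0.001 to 0.251) without overlap. It was above Tg1 by 0.10 (interval -0.021 to 0.227) with overlap. The level in Tg3 was below that in Tg2 by -0.19 (interval -0.316 to -0.065), and these libraries did not overlap.

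A gene was called a differentially expressed gene (DEG) where edgeR's adjusted p did not exceed 0.05 and its log2 fold change, in either direction, was at least 0.26. The study used the same thresholds. In Tg1, both genes met these thresholds against NC, where 1.19% of the 11553 genes tested did (21 higher and 117 lower). In Tg2, SLC25A25 met them and TSPO did not, and 8.43% of the genes tested met them (546 higher and 428 lower). In WT and Tg3, neither gene met them, and 0.0% of all genes did in each. Before adjustment, p was under 0.05 for 524 genes in WT and for 2089 in Tg3, and DESeq2 called 11 and 45. Because the 2 genes were chosen on these comparisons, nothing is read from their calls. The calls were also often lost when a library was left out, while the log2 fold changes moved little. Over the 15 fits that each left out 1 library, the count of all genes called moved as well. It ranged from 16 to 255 in Tg1 and from 0 to 1878 in Tg2 against NC. TSPO in Tg1 met the thresholds in 0 of the 6 fits that left out 1 of the libraries compared, although its log2 fold change stayed between 0.32 (without NC replicate 2) and 0.41 (without NC replicate 3). SLC25A25 met them in 1 of 6 such fits for Tg1, and its log2 fold change stayed between 0.26 and 0.33. For Tg2 it met them in 4 of 6, the exceptions being those without NC replicate 3 or Tg2 replicate 2, and there its log2 fold change stayed between 0.35 and 0.43.

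In the comparisons that could be tested, the difference between genotypes did not pass the threshold for either gene. For TSPO, Tg2 was above WT by a log2 fold change of 0.17 (95% interval 0.003 to 0.333, adjusted p = 0.139 from edgeR), and the exact permutation test gave p = 0.2 (two-sided). In this comparison 5.92% of all genes were called. The difference of Tg3 from WT was 0.10 (interval -0.068 to 0.263, adjusted p = 0.476 from edgeR, exact permutation p = 0.4), with 0.0% of all genes called. That of Tg3 from Tg2 was -0.07 (interval -0.235 to 0.094, adjusted p = 0.839 from edgeR, exact permutation p = 0.3), also with 0.0% called. Before adjustment, p was under 0.05 for 2215 genes in Tg3 against WT and for 673 in Tg3 against Tg2, and DESeq2 called 108 and 0 genes.

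For SLC25A25, the smallest of these differences was that of Tg1 from WT, with a log2 fold change of 0.02 (95% interval -0.101 to 0.148, adjusted p = 0.86 from edgeR, exact permutation p = 0.6, two-sided), where 0.0692% of all genes were called. Tg3 differed from WT by -0.06 (interval -0.19 to 0.062, adjusted p = 0.54 from edgeR, exact permutation p = 0.4). From Tg1 it differed by -0.09 (interval -0.213 to 0.037, adjusted p = 0.503 from edgeR, exact permutation p = 0.3), and 0.615% of all genes were called between these mutants. With 3 libraries against 3, the smallest exact p is 0.1, so this test could not reach 0.05. The intervals show how far the groups may still differ. The widest bounds are 0.333 for TSPO, in Tg2 against WT, and -0.213 for SLC25A25, in Tg3 against Tg1.

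**Figure D2:**
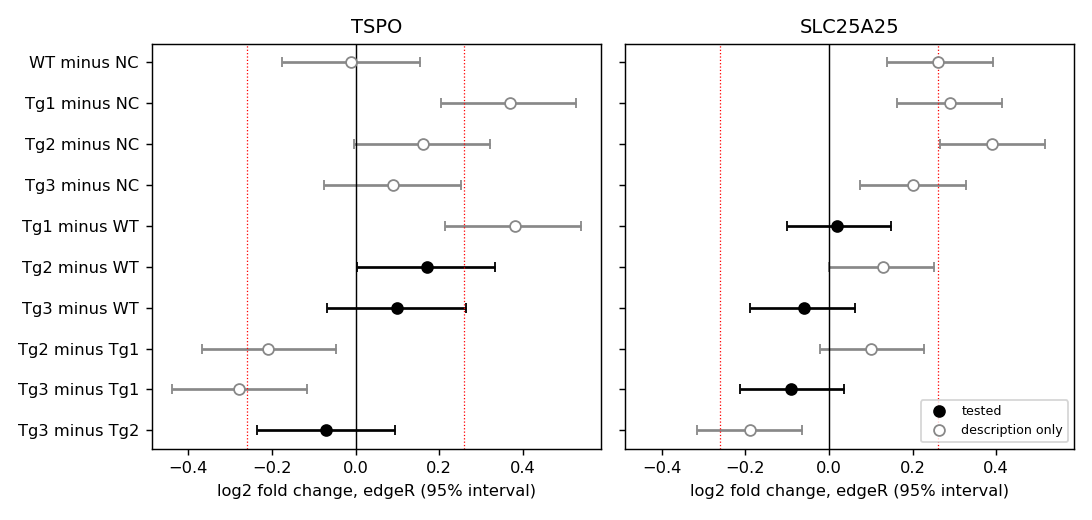
Log2 fold change of TSPO (left) and SLC25A25 (right) in the 10 comparisons between plasmids, with 95% intervals from edgeR. Filled points were tested and open points are descriptions on libraries used to choose the gene, and the dotted lines mark the fold threshold of 0.26. For SLC25A25 the intervals of all 4 comparisons with NC lie above 0, and for TSPO only that of Tg1 does among the 4.

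The replicates of both genes were close. The SD of log2 CPM within plasmids was 0.0878 for TSPO and 0.0704 for SLC25A25, beside a median of 0.091 over all genes tested. Counting error alone gives 0.0692 for TSPO and 0.0454 for SLC25A25, so it is the larger part of the spread of TSPO. At 332 to 598 counts of TSPO the counting error of a library is 5.49% to 4.09%, and at 833 to 1199 counts of SLC25A25 it is 3.46% to 2.89%. The highest library exceeded the lowest 1.52-fold for TSPO and 1.45-fold for SLC25A25.

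The libraries also varied along an axis that the plasmids did not fully explain. The first principal component held 54.3% of the variance, and on it WT replicate 2 (6.61) stood apart from WT replicates 1 (-14.77) and 3 (-23.71). In the same wells SLC25A25 was at 44.9 CPM in replicate 2, between the 46.1 and 43.8 CPM of the others. Across the 15 libraries, the Pearson correlation of SLC25A25 was 0.57 with this component and 0.30 with the second, which held 7.85%. For TSPO the correlations were 0.26 and 0.66, and the Tg1 libraries had the 3 highest values on the second component (11.88, 7.9 and 4.29). The correlation with the total count was 0.32 for TSPO and -0.23 for SLC25A25. What these components stand for was not tested.

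Between the log2 CPM of TSPO and SLC25A25, Pearson's r was 0.31 and Spearman's rho 0.30 over 15 libraries, and r was 0.39 without WT replicate 1 and Tg1 replicate 2, the libraries farthest from the median of TSPO. With CPM that were not scaled by normalization factors, r was 0.17. Since both genes were chosen for a level above NC in some of these libraries, these values are descriptions. The deviations from the plasmid means do not hold the differences between plasmids, and for them r was -0.49 (permutation p = 0.0838, 0.168 after adjustment over the 2 relations computed) and rho was -0.43 (permutation p = 0.138, 0.276 after adjustment). Without WT replicate 1 and Tg2 replicate 1, this r was -0.53. The relation among the wells did not pass the threshold.

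**Figure D3:**
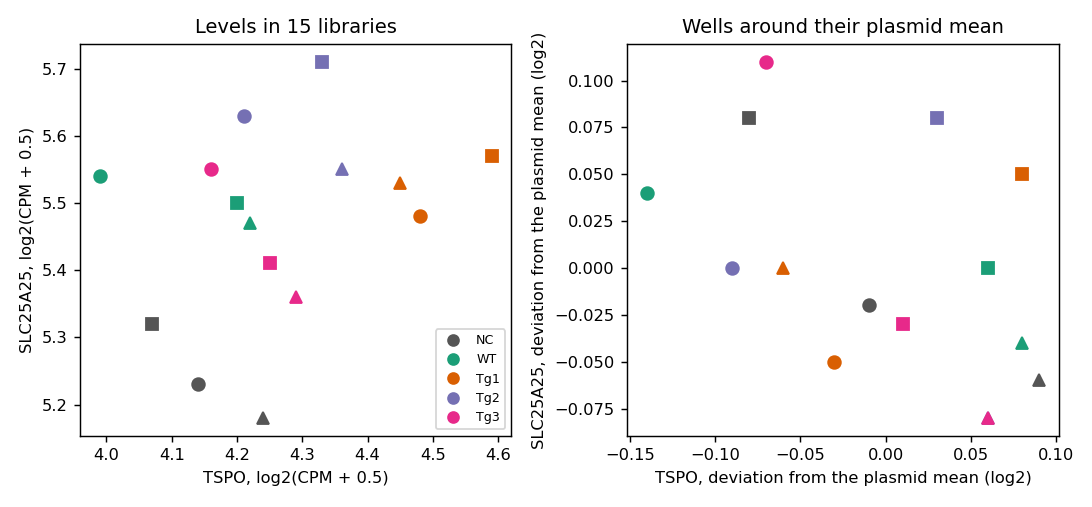
SLC25A25 against TSPO in the 15 libraries, as log2(CPM + 0.5) on the left and as the deviation of each library from its plasmid mean on the right. Colours are plasmids, and circles, squares and triangles are replicates 1, 2 and 3. The Tg1 libraries lie to the right, the NC libraries at the bottom, and on the right the points of Tg2 and Tg3 replicate 3 coincide.

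The closest relatives of SLC25A25 are SLC25A23 and SLC25A24, the other EF-hand carriers for ATP-Mg and phosphate. SLC25A23 had its highest mean in NC, at 42.0 ± 0.999 CPM, followed by 40.7 ± 3.15 in WT, 39.3 ± 3.10 in Tg1, 36.1 ± 1.65 in Tg3 and 33.9 ± 2.75 in Tg2 (SD, n = 3 each). It fell by 0.31 on the log2 scale in Tg2 (adjusted p = 0.0219 from edgeR), the group in which SLC25A25 was highest, and no Tg2 library overlapped with NC. SLC25A24 was between 206 and 218 CPM on average in all 5 groups, with adjusted p-values from edgeR of 0.467 or more. SLC25A41, which lacks the calcium-binding domain, had 0 to 14 counts per library and was not tested. Transcripts of related carriers can share reads when they are quantified from the transcriptome, which was not tested here.

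Among the other carriers, SLC25A5, which exchanges ADP for ATP across the inner membrane, rose from 284 ± 23.3 CPM in NC to 364 ± 45.7 CPM in Tg2 (SD, n = 3 each), a log2 fold change of 0.36 (adjusted p = 0.0401 from edgeR). Its relative SLC25A6 was at 645 ± 33.3 and 711 ± 30.2 CPM (log2 fold change 0.14, adjusted p = 0.0554 from edgeR). SLC25A16 fell by 0.38 in Tg2 (adjusted p = 0.0174 from edgeR), from 17.1 ± 1.33 to 13.1 ± 0.458 CPM. SLC25A27, an uncoupling protein, fell by 0.38 as well (adjusted p = 0.0441 from edgeR). The count table had 39 other SLC25 genes, of which 35 were tested, and in Tg2 1 rose and 3 fell (11.4%, beside 8.43% of all genes). In WT, Tg1 and Tg3, 0 of the 35 were called by edgeR or DESeq2, while p before adjustment was under 0.05 for 1, 5 and 9 of them. The shares of all genes called in these comparisons were 0.0%, 1.19% and 0.0%. The median log2 fold change of these 35 genes was between -0.02 and 0.03 in the 4 comparisons.

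Of the 16 tested genes in the list of TSPO partners and cholesterol import, 0 were called in Tg1 by edgeR or DESeq2, with p before adjustment under 0.05 for 5, and 1.19% of all genes were called there, so nothing is read from this count. TSPO2, the paralog of TSPO, was at 21.5 ± 2.42 CPM in NC and 20.5 ± 1.5 CPM in Tg1 (log2 fold change -0.07, adjusted p = 0.663 from edgeR). VDAC1, the main channel of the outer membrane, was at 252 ± 4.91 CPM in NC and 265 ± 4.49 CPM in Tg1, without overlap but with a log2 fold change of only 0.08 (adjusted p = 0.234 from edgeR). VDAC3 was at 93.6 ± 2.02 and 94.0 ± 0.88 CPM (SD, n = 3 each). VDAC2 was not analysed here.

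DBI, the ligand, was at 192 ± 4.62 CPM in NC and 188 ± 8.96 CPM in Tg1, and at 172 ± 7.29 CPM in Tg2, where the log2 fold change of -0.16 had an adjusted p of 0.0327 from edgeR but a size below the fold threshold. STAR, which brings cholesterol to the inner membrane in steroidogenic cells, had 10 to 32 counts per library and was not tested. STARD3, a cholesterol-binding protein of late endosomes, rose in Tg2 from 18.0 ± 0.409 to 22.7 ± 2.00 CPM (log2 fold change 0.34, adjusted p = 0.0219 from edgeR). It was also the only gene of that list called in Tg2 (6.25%, beside 8.43% of all genes), where DESeq2 called 3. In Tg1 its log2 fold change was 0.27 with an adjusted p of 0.0857 from edgeR, and its 3 libraries did not overlap with NC.

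Of the proteins that carry calcium into the matrix, the pore subunit MCU was at 82.7 ± 1.35 CPM in NC and 98.1 ± 7.29 CPM in Tg2, with a log2 fold change of 0.25 (adjusted p = 0.021 from edgeR) that stayed below the fold threshold. MCUB, the inhibitory paralog of the pore, had a log2 fold change of 0.26 (adjusted p = 0.0459 from edgeR) that was also just short of it. SMDT1, a small subunit of the same channel, was at 36.3 ± 0.962 CPM in Tg2 and 35.4 ± 1.68 CPM in NC (SD, n = 3 each). Of the 17 genes of this list, 14 had a positive log2 fold change in Tg2, 16 in Tg1, 15 in Tg3 and 9 in WT, with medians of 0.07, 0.05, 0.07 and 0.00. The medians of all genes tested were -0.007, 0.003, -0.002 and -0.004 in the same order. The share of all genes with a positive sign is not given here, so nothing is read from these counts.

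In the haem and porphyrin list, the porphyrin transporter ABCB6 fell by 0.42 in Tg2 (adjusted p = 0.0474 from edgeR) and was the only gene called of 19 (5.26%, beside 8.43% of all genes), while DESeq2 called 2. In this case the libraries overlapped, at 77.6 ± 8.82 CPM in NC and 58.1 ± 9.75 CPM in Tg2 (SD, n = 3 each). BLVRB, a biliverdin reductase, was at 37.2 ± 0.767 CPM in NC and 42.7 ± 0.825 CPM in Tg1 without overlap (log2 fold change 0.20, adjusted p = 0.0798 from edgeR). Among 23 genes of outer membrane import and dynamics, PINK1, a kinase that marks damaged mitochondria, fell by 0.33 in Tg2 (adjusted p = 0.0295 from edgeR), and it was the only one called (4.35%, beside 8.43% of all genes), while DESeq2 called 2. MFN2, which fuses mitochondria, and MFF, which helps to divide them, had log2 fold changes of 0.22 and -0.22 in Tg2 and edgeR gave adjusted p-values of 0.027 for MFN2 and 0.0247 for MFF, with sizes below the fold threshold.

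Of 14 antioxidant genes, 2 were called in Tg2 (14.3%, beside 8.43% of all genes). SOD2, the superoxide dismutase of the matrix, rose in Tg2 from 129 ± 10.7 to 168 ± 26.2 CPM (log2 fold change 0.39, adjusted p = 0.0444 from edgeR). GCLM, the modifier subunit of the enzyme that starts glutathione synthesis, fell from 307 ± 28.5 to 218 ± 13.7 CPM (log2 fold change -0.49, adjusted p = 0.0198 from edgeR). CAT and GSR had log2 fold changes of -0.22 and -0.19 in Tg2, short of the fold threshold, and edgeR's adjusted p was 0.0446 for CAT and 0.0392 for GSR. In all, 12 of the 14 genes had a negative log2 fold change in Tg2, 13 in Tg3, 9 in WT and 6 in Tg1, with medians of -0.09, -0.08, -0.01 and 0.03. The medians of all genes tested were -0.007, -0.002, -0.004 and 0.003 in the same order. Without the share of all genes with a negative sign, nothing is read from these counts. Of 12 genes of mitochondrial biogenesis, the coactivator PPRC1 (log2 fold change 0.29, adjusted p = 0.0145 from edgeR) and the mitochondrial RNA polymerase POLRMT (0.27, adjusted p = 0.0306 from edgeR) rose in Tg2 (16.7%, beside 8.43% of all genes). ESRRA, a nuclear receptor of the same programme, was lower by -0.23 (adjusted p = 0.0411 from edgeR), also short of the fold threshold.

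Over all 8 lists, 138 of 151 genes were in the table and 129 were tested. In Tg2 edgeR called 12 of them (9.3%, beside 8.43% of all genes), of which 6 rose and 6 fell. In WT, Tg1 and Tg3 it called 0 of the 129, while p before adjustment was under 0.05 for 3, 22 and 34 of them, and DESeq2 called 0, 0 and 1. Of all genes, edgeR called 0.0%, 1.19% and 0.0% there, so nothing is read from these counts. The share in Tg2 was thus close to that of all genes, and the median log2 fold changes of the lists together in WT, Tg1, Tg2 and Tg3 were 0.00, 0.04, -0.02 and -0.01, where those of all genes were -0.004, 0.003, -0.007 and -0.002. The count in Tg2 fell to 0 without NC replicate 1, NC replicate 3, Tg2 replicate 1 or Tg2 replicate 2, and it was 19 without WT replicate 2 and 22 without Tg2 replicate 3. Markers of proximal tubule or renal epithelium moved in the same comparison, and 8 of 16 were called in Tg2 (50.0%, beside 8.43% of all genes). LRP2, CUBN, ANPEP, VIL1, SLC5A2, SLC34A1 and CDH6 fell and CDH1 rose, and the median log2 fold change of the list was -0.23. The summed level of the list was 4930 ± 107 CPM (SD, n = 3). KRT8 alone was at 2310 to 2360 CPM in Tg2 and at 2130 to 2190 CPM in NC. In Tg1, CDH6 fell and was the only marker called by edgeR (6.25%, beside 1.19% of all genes). There p before adjustment was under 0.05 for 7 of the 16, and DESeq2 called 3. The part of these markers in the changes of mitochondrial genes was not tested. In bulk RNA, fewer cells with a transcript and less of it per cell cannot be told apart.

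**Figure D4:**
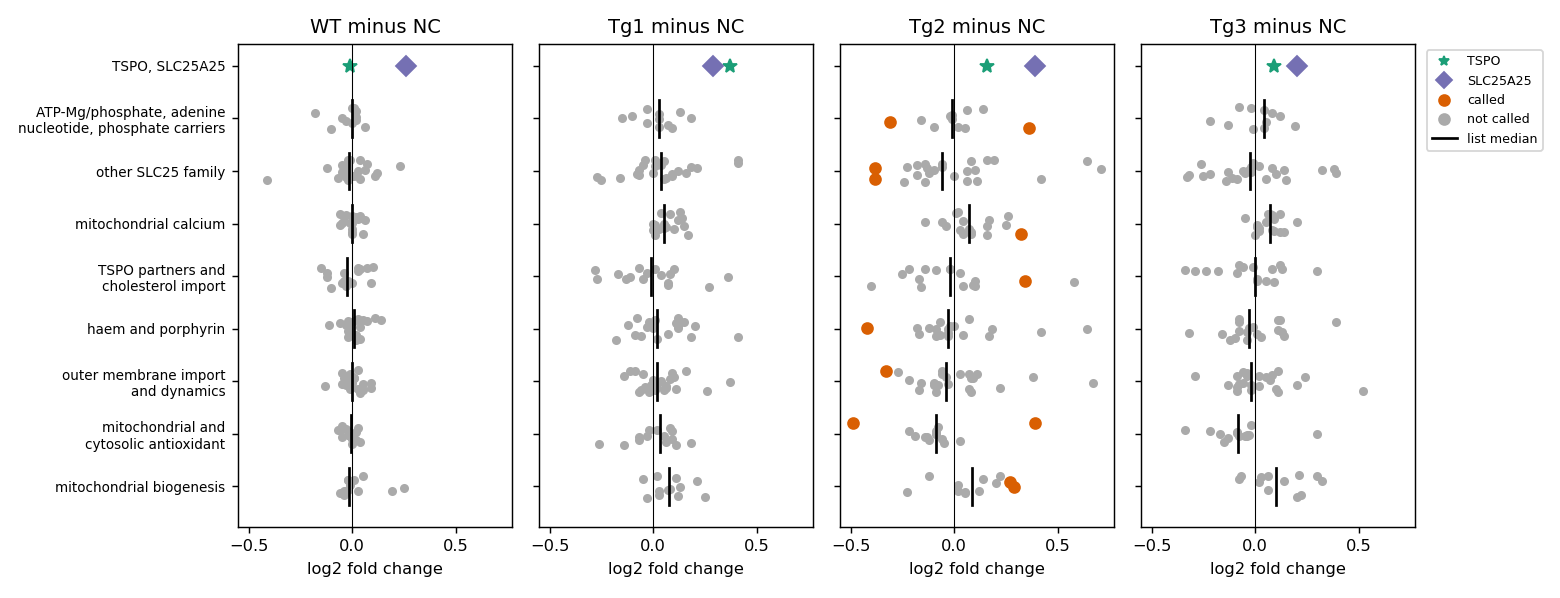
Log2 fold changes of the tested genes of 8 lists against NC in WT, Tg1, Tg2 and Tg3 (edgeR), with TSPO (star) and SLC25A25 (diamond) in the top row. Orange points are genes called at an adjusted p of 0.05 and a log2 fold change of 0.26, grey points are not called, and black bars are list medians. Among the genes of the lists, called ones appear only in Tg2, on both sides of 0, whereas the list medians stay between -0.09 and 0.10.

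The genes whose pattern was most like that of each of the 2 genes were taken from the 10133 other tested genes with a symbol, by the Pearson correlation of log2 CPM over the 15 libraries. For TSPO the highest correlations were those of RNH1 (0.85), OTUB1 (0.84), FUNDC2 (0.82), CSTB (0.82) and SPR (0.81). With the deviations from the plasmid means, the correlations were lower, at 0.42, 0.58, 0.46, 0.57 and 0.51 in the same order. RNH1 is the ribonuclease inhibitor, OTUB1 a deubiquitinase, FUNDC2 a protein of the outer mitochondrial membrane, CSTB a cysteine protease inhibitor and SPR the sepiapterin reductase. They moved less than TSPO, with log2 fold changes in Tg1 of 0.10 for RNH1, 0.12 for OTUB1, 0.16 for FUNDC2, 0.11 for CSTB and 0.16 for SPR. FUNDC2, for example, was at 35.3 ± 0.560 CPM in NC and 39.5 ± 1.49 CPM in Tg1 (SD, n = 3 each). Among the genes with a negative correlation was KIF3A (-0.85). KIF3A, a motor subunit required for cilia, was at 40.9 ± 1.61 CPM in NC and 36.1 ± 2.02 CPM in Tg1 (SD, n = 3 each).

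For SLC25A25 the highest correlations were those of MYC (0.92), ADM (0.91), ANKRD1 (0.91), EDN1 (0.90) and FOSL1 (0.90). MYC and FOSL1 are transcription factors induced by growth signals, ADM and EDN1 are the vasoactive peptides adrenomedullin and endothelin-1, and ANKRD1 is a nuclear ankyrin repeat protein. EDN1 had the largest log2 fold change of the 5 in Tg2, at 1.03, with 25.7, 35.4 and 27.3 CPM in NC and 64.8, 66.3 and 49.6 CPM in Tg2. Over the 12 libraries without NC, the correlations of the 5 genes with SLC25A25 were 0.76, 0.77, 0.79, 0.77 and 0.72 in the same order. For the deviations from the plasmid means they were 0.62, 0.60, 0.69, 0.69 and 0.63, in libraries that were also used to pick the genes. The most opposite genes were RNF144A (-0.88), an E3 ubiquitin ligase, ZNF644 (-0.85), a zinc finger protein, and VWA8 (-0.84), a mitochondrial ATPase. RNF144A was at 53.5, 48.2 and 52.3 CPM in NC and at 38.8, 36.8 and 42.9 CPM in Tg2, and its correlation with SLC25A25 was -0.86 for the deviations from the plasmid means.

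A correlation of 0.8 or more was reached by 9 genes for TSPO and by 40 for SLC25A25, and the median over all genes was 0.01 and -0.03. These genes were picked for their correlation on the same libraries, which also share the plasmid effects, so the values are descriptions. No gene was among the 5 most alike for both TSPO and SLC25A25.

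**Figure D5:**
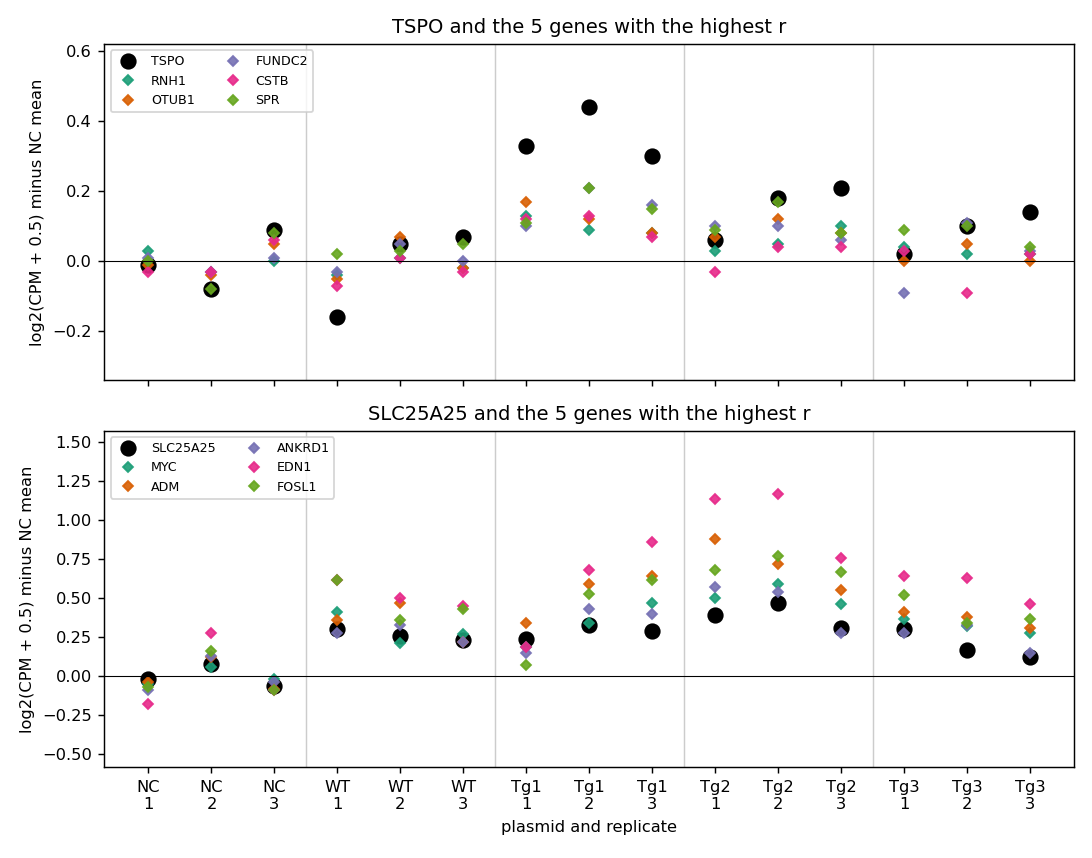
Log2(CPM + 0.5) relative to the NC mean in each of the 15 libraries, for TSPO with its 5 most similar genes (top) and SLC25A25 with its 5 most similar genes (bottom). Large black points are TSPO and SLC25A25. TSPO exceeds its similar genes in the Tg1 libraries, at 0.33, 0.44 and 0.30, and SLC25A25 reaches 0.39, 0.47 and 0.31 in Tg2, where EDN1 reaches 1.14, 1.17 and 0.76.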

How the data were processed

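Poly(A) RNA of LLC-PK1 cells was sequenced by the authors, who used Salmon, with Ensembl's pig cDNA as its reference, and DESeq2. The deposited values are raw counts in whole numbers for each Ensembl gene, and the genome build is not given in the sources used here. The table held 15 value columns, all of which matched a labelled sample, and 0 did not. Symbols were matched for 13373 of 16660 genes. The members and the gene lists were chosen with earlier results of these data known.

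Genes were kept from a mean CPM of 2 upward (11553 genes, 99.8% of counts). Counts were fitted with edgeR 4.0.16 (R 4.3.3) by TMM and the quasi-likelihood test, with all 15 libraries in 1 model with a mean for each of the 5 plasmids, and p-values were adjusted by Benjamini-Hochberg over all genes tested. DEGs had an adjusted p up to 0.05 and a log2 fold change of at least 0.26 in size. Log2 CPM for correlations and exact permutation tests (scipy 1.17.1, 100000 permutations for correlations) had a pseudocount of 0.5. The script was tested on simulated data. Replicates differed by more than counting noise (chi-square per degree of freedom 2.9 to 46.6), so all 15 libraries were counted separately. Replicate numbers are shared between plasmids, but only NC and WT had every same-numbered correlation of deviations over 0.1, so the main model did not take the numbers as pairs. The mean same-numbered correlation was still positive for every pair of plasmids except Tg1 with Tg2 (-0.174). It was 0.413 for NC with WT and 0.322 for WT with Tg3. The main model thus leaves out whatever same-numbered wells share, and the replicate block is given as an alternative.

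Besides TSPO and SLC25A25, the rule named SLC25A23, SLC25A24, SLC25A41, TSPO2, VDAC1, VDAC2, VDAC3, DBI, STAR and MCU, up to 4 genes per list with the smallest unadjusted p against NC, and for each member the 5 genes with the highest and the 3 with the lowest correlation. Some genes the rule named are not reported here. The lists were ATP-Mg/phosphate and nucleotide carriers, other SLC25 genes, mitochondrial calcium, TSPO partners and cholesterol import, haem and porphyrin, outer membrane import and dynamics, antioxidants and biogenesis, with markers of renal epithelium, leukocytes, fibroblasts and endothelium. LRP2, CUBN, ANPEP, VIL1, SLC5A2, SLC34A1, CDH1 and CDH6 are named as the markers called. Alternatives were DESeq2 1.42.0, its size factors in edgeR, other filters, only the groups compared, the replicate block, no fold threshold and leaving out each library.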

Additional observations from a re-analysis of the deposited data

How the results depend on the processing

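The log2 fold changes of TSPO and SLC25A25 kept their sign in the fits that left out a library, except that TSPO in WT against NC ranged from -0.05 to 0.06 and SLC25A25 in Tg1 against WT ranged from 0.00 (without Tg1 replicate 2, where it changed sign) to 0.05. TSPO in Tg2 against WT ranged from 0.10 to 0.21, in Tg3 against WT from 0.03 to 0.14 and in Tg3 against Tg2 from -0.12 to -0.03. SLC25A25 ranged from -0.12 to -0.03 in Tg3 against WT and from -0.14 to -0.05 in Tg3 against Tg1. Among the values given as descriptions, TSPO ranged from 0.05 to 0.14 in Tg3 against NC, and SLC25A25 from 0.08 to 0.17 in Tg2 against WT and from 0.06 to 0.14 in Tg2 against Tg1. Leaving out a library moved the related genes called in Tg2 from 0 to 22. For all genes it moved the count from 0 to 25 in WT against NC, 16 to 255 in Tg1 against NC, 0 to 1878 in Tg2 against NC, 0 to 852 in Tg1 against WT, 0 to 2421 in Tg2 against WT, 0 to 1321 in Tg3 against WT and 3 to 115 in Tg3 against Tg1. The highest counts against WT came without WT replicate 2, and the 0 in Tg2 against NC without NC replicate 3 or Tg2 replicate 2. The cause was not tested.

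With the replicate block, 19 related genes were called in Tg2, and all genes called were 246 in Tg1, 1624 in Tg2 and 11 in Tg3 against NC, 66, 1578 and 111 in Tg1, Tg2 and Tg3 against WT, and 108 in Tg3 against Tg1. TSPO in Tg1 against WT met the thresholds with the block and under DESeq2. DESeq2 called 1 related gene in Tg3, and of all genes 11 in WT, 242 in Tg1 and 45 in Tg3 against NC, 85, 1184 and 108 in Tg1, Tg2 and Tg3 against WT, and 138 in Tg3 against Tg1. Without a fold threshold there were 20 related genes in Tg2, and 264, 1643, 1099 and 118 genes in Tg1 and Tg2 against NC, Tg2 against WT and Tg3 against Tg1. A fit of only the groups compared called 0 genes in Tg1 and in Tg2 against WT and 32 in Tg3 against Tg1, and no filter on low counts left 2 in Tg1 against WT.

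The depth of 332 to 598 counts per library limits TSPO more than SLC25A25.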

Other observations

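The genes beside TSPO and SLC25A25 on their chromosomes, by the order in the RefSeq annotation of the pig assembly Sscrofa11.1, are given here with their own values. TTLL12 and MCAT flank TSPO, and in Tg1 their log2 fold changes against NC were 0.05 and 0.17 (adjusted p = 0.448 and 0.14 from edgeR) beside 0.37 for TSPO. MCAT, the malonyltransferase of mitochondrial fatty acid synthesis, was at 20.3 ± 0.605 CPM in NC and at 22.9 ± 0.9, 23.2 ± 0.637 and 23.3 ± 1.19 CPM in Tg1, Tg2 and Tg3 (SD, n = 3 each). PTGES2 is next to SLC25A25, and its mean was between 36.5 and 38.6 CPM in all 5 groups. LCN2, the lipocalin that marks tubular injury, is further along and was at 30.4 ± 1.89 CPM in NC and 38.7 ± 3.56 CPM in Tg2 (log2 fold change 0.34, adjusted p = 0.0456 from edgeR). Among all genes, 8.43% were called in Tg2. DPM2, on the other side of SLC25A25, was at 43.8 ± 1.9 CPM in NC and 48.4 ± 0.764 CPM in Tg2 (log2 fold change 0.15, adjusted p = 0.0831 from edgeR). SCUBE1, beyond TTLL12, had 13 to 38 counts per library and was not tested. NAIF1, which lies between DPM2 and SLC25A25, was not analysed here. The annotated spans of these genes do not overlap.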
